A study of Rattus norvegicus with 9 samples.

Results

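The genes described here are 10 that carry out or control de novo fatty acid synthesis in liver: Fasn, Acaca, Acacb, Acly, Elovl6, Me1, Thrsp, Srebf1, Mlxipl and Pnpla3. They were chosen by name, with earlier results of these data known. Of the 10 genes, 9 were listed in both deposited tables, which share 16730 genes by symbol, and Elovl6 was not analysed here. Pnpla3 had too few counts to be tested, so that 8 of the 10 genes were tested in all 3 comparisons. The livers came from male Sprague-Dawley rats, 3 rats in each of 3 groups. Rats of the model group had received carbon tetrachloride (CCl4), a hepatotoxin used to produce liver fibrosis, by mouth at 2 ml/kg as a 50% solution in oil, 2 times a week for 9 weeks. Rats of the TA group had received the same CCl4 and then tormentic acid (TA), a triterpene from the herb Potentilla chinensis, at 3 mg/kg for 6 weeks. Rats of the normal control group had received the same volume of saline, so that CCl4 and its oil cannot be told apart in Model VS Normal. All rats had been fasted for 12 h before the livers were taken, so that every level below is a fasted one. Livers of rats given TA without CCl4 were not analysed here.

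De novo lipogenesis turns carbohydrate carbon into fatty acids. ATP-citrate lyase (Acly) splits cytosolic citrate into acetyl-CoA, the acetyl-CoA carboxylases (Acaca and Acacb) carboxylate it to malonyl-CoA, fatty acid synthase (Fasn) builds palmitate from both, and the elongase encoded by Elovl6 lengthens palmitate to stearate. Malic enzyme (Me1) supplies part of the NADPH that Fasn consumes. In liver the pathway is controlled at transcription by SREBP-1c, from Srebf1, which responds to insulin, and by ChREBP, from Mlxipl, which responds to glucose. Thrsp (Spot 14) is a small protein induced together with the enzymes by feeding and thyroid hormone, and Pnpla3 encodes a lipid droplet protein that is itself a target of SREBP-1c. Fasting lowers the transcription of most of these genes and refeeding raises it.

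The promoters of Srebf1, Thrsp and Acly, which each tracked another of the genes closely across the 9 livers, are shown with the CCAAT box bound by NF-Y and the GC box GGGCGG bound by Sp1 in capitals on either strand, since both factors are known partners of SREBPs. RefSeq windows on GRCr8 of 250 bases before and 50 bases after the start were found for 7 of the 10 genes, in 9 windows. No window was found for Fasn, Acaca and Elovl6. Srebf1 had a pair of starts, of which the upstream one belongs to SREBP-1a and the downstream one to SREBP-1c. All 4 windows lie on the minus strand and are printed 5′ to 3′ in the direction of the gene.
Srebf1, downstream start, chr10:45518961-45519260: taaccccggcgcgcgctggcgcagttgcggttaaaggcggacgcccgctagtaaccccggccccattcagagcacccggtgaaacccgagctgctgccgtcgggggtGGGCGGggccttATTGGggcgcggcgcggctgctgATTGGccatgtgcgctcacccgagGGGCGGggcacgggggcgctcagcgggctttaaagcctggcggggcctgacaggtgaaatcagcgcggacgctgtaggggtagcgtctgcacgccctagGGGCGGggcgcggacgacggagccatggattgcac
Srebf1, upstream start, chr10:45529115-45529414: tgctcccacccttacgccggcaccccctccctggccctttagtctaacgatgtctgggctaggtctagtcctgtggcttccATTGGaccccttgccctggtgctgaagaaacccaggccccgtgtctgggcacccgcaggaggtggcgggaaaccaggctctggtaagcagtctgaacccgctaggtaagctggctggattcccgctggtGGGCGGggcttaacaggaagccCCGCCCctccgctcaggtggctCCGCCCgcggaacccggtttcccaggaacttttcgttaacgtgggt
Thrsp, chr1:161138915-161139214: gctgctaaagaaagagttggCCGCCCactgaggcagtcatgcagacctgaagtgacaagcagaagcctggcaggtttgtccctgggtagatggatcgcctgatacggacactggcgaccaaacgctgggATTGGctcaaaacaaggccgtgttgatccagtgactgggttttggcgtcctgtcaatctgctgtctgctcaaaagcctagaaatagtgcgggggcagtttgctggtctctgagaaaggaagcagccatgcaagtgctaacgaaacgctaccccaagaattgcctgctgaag
Acly, chr10:85963582-85963881: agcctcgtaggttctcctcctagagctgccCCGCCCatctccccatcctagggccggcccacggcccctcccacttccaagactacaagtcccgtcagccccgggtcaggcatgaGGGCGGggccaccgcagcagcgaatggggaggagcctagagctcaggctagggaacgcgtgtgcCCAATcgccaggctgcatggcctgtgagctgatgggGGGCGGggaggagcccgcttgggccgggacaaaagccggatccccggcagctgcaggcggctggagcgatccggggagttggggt
CCAAT was found on either strand in the windows of 6 of the 7 genes, all but Me1, against 37.5% of the 33469 promoter windows of the genome. GGGCGG was found in 5 of the 7, in Acly, Me1, Thrsp, Srebf1 and Pnpla3, against 33.1% of all windows. No window of the 7 genes held the E-box CACGTG (6.42% of all windows), which is also the core of the paired E-box element of ChREBP (0.00299%), the sterol element TCACNCCAC (1.12%) or the spaced direct repeat of the liver X receptor (0.00598%). A match describes the letters of these windows and is no evidence of binding, and the elements may lie outside them.

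Each liver had between 13156735 and 18090405 counted reads, and rats carried the same replicate numbers across groups but were different animals, so that the p-values measure the spread between rats. All 18 hepatocyte markers listed for the check of the tissue were measured in every liver, and Alb stood between 20445 and 118658 CPM. Model rat 1 stood apart. Its 50 most counted genes took 27.9% of its reads, against 40.4% to 45.7% in the other 8 livers, and its hepatocyte markers summed to 45582 CPM, against 135425 to 229777 CPM in the other 8. Named genes that lost a call without this liver are given both ways. Levels are CPM, read counts scaled for depth with TMM over the 9 livers, and in bulk liver a lower CPM from fewer cells of a type and from less RNA per cell cannot be told apart.

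Compared between genes per length of transcript, in FPKM, the regulators stood above the enzymes in the normal control group. Thrsp was at 59.0 ± 33.3 FPKM (SD, n = 3), Mlxipl at 36.9 ± 10.4, Srebf1 at 19.5 ± 13.5 and Acly at 10.9 ± 3.40 FPKM. Me1 followed at 5.56 ± 0.458, Acacb at 5.08 ± 1.71, Fasn at 4.37 ± 2.92 and Acaca at 1.25 ± 0.575 FPKM, and Pnpla3 was the lowest at 0.0518 ± 0.0265 FPKM. Neighbours in this order overlapped between rats from Thrsp down to Acly and again from Me1 down to Fasn. Acly did not overlap Me1, Fasn did not overlap Acaca, and Acaca did not overlap Pnpla3. Acacb, the carboxylase of the mitochondrial surface whose malonyl-CoA holds back fatty acid oxidation, was at 3.55 to 5.56 times the FPKM of the cytosolic Acaca in the normal control group, at 2.74 to 7.81 times in the model group and at 1.65 to 3.24 times in the TA group, ranges that overlap only between the model group and each of the others. These ratios were chosen after the counts were seen and have no test.

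Compared with the normal control group, 7 of the 8 tested genes had a lower fitted level in the model group and Me1 a higher one with TMM scaling, signs that turned for 5 of the genes with other scalings, and none of the 8 differed beyond the spread between rats. Their log2 fold changes ran from -1.21 (Thrsp) to 0.48 (Me1) with a median of -0.59, while the median over all 12730 genes tested was 0.017. With edgeR's quasi-likelihood test, 0 of the 8 genes had an adjusted p under 0.05, where 7.87% of all genes did, and the smallest adjusted p was 0.199. A looser, nominal threshold of p below 0.05 before adjustment together with more than 1 log2 unit of change was used for counts beside it. Of the 8 genes, 0 were below 0.05 before adjustment (28.9% of all genes) and so 0 passed the nominal threshold (22.1%, of which 16.6% in the higher and 5.55% in the lower direction). Levels of the model and normal livers overlapped for all 8 genes, where 38.2% of all genes had groups without overlap. DESeq2 gave 2 genes at the nominal threshold, Thrsp at -1.22 (adjusted p = 0.129) and Srebf1 at -1.07 (adjusted p = 0.146), and 0 by adjusted p. The counts at that threshold turned on single rats. Without normal rat 1 the count was 3 (Acaca, Thrsp and Srebf1), without model rat 2 it was 1 (Thrsp), and without model rat 3 it was 2 (Mlxipl and Pnpla3). Without normal rat 3 the median was -0.23, and without model rat 1 it was -0.59.

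In TA VS Model most of the genes lay above 0 with TMM scaling, a sign that also turned for 5 of them with other scalings, and of the 8 only Acaca passed the nominal threshold. The log2 fold changes of the 8 genes ran from -0.016 (Me1) to 1.08 (Acaca), 7 of them above 0, with a median of 0.54 against -0.0038 over all 12781 genes tested. These values share the model livers with Model VS Normal, so that a rise after a fall is partly fixed by the design. With edgeR's quasi-likelihood test, 0 of the 8 had an adjusted p under 0.05, as had 0 of all genes (0%), although 15.6% of all genes were below 0.05 before adjustment and DESeq2 gave 541 genes by adjusted p. At the nominal threshold 1 of the 8 passed, Acaca, where 12.3% of all genes passed, 2.11% in the higher and 10.2% in the lower direction. With TMM scaling, levels of the TA and model livers did not overlap for 3 of the 8, Acaca, Acly and Mlxipl, all higher in the TA group. Of all genes, 23.1% had groups without overlap, and 10.5% in that direction. In FPKM only Acaca of these kept the groups apart, and the TA and model livers overlapped for Acly and Mlxipl. The count at the nominal threshold was 2 without model rat 2 (with Thrsp) and 2 without TA rat 1 (with Srebf1). The median was 0.86 without model rat 2, 0.36 without model rat 3 and 0.49 without model rat 1.

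In TA VS Normal the 8 genes lay on both sides of 0. Of them 4 were above and 4 below 0, from -0.69 (Thrsp) to 0.43 (Me1), with a median of -0.025 against -0.0096 over all 12179 genes tested. By edgeR's quasi-likelihood test, 0 of the 8 passed the adjusted threshold (0.263% of all genes), 0 were below 0.05 before adjustment (9.43%) and 0 passed the nominal threshold (5.25%, of which 4.24% higher and 1.02% lower), and DESeq2 gave 0 as well. Levels did not overlap for 1 gene, Me1, higher in the TA group, where 15.1% of all genes had groups without overlap and 8.26% in that direction. Without normal rat 1, 1 gene passed the nominal threshold, Thrsp at -1.04 (adjusted p = 0.528), and the median was -0.34. Without normal rat 3 the median was 0.33.

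**Figure D1:**
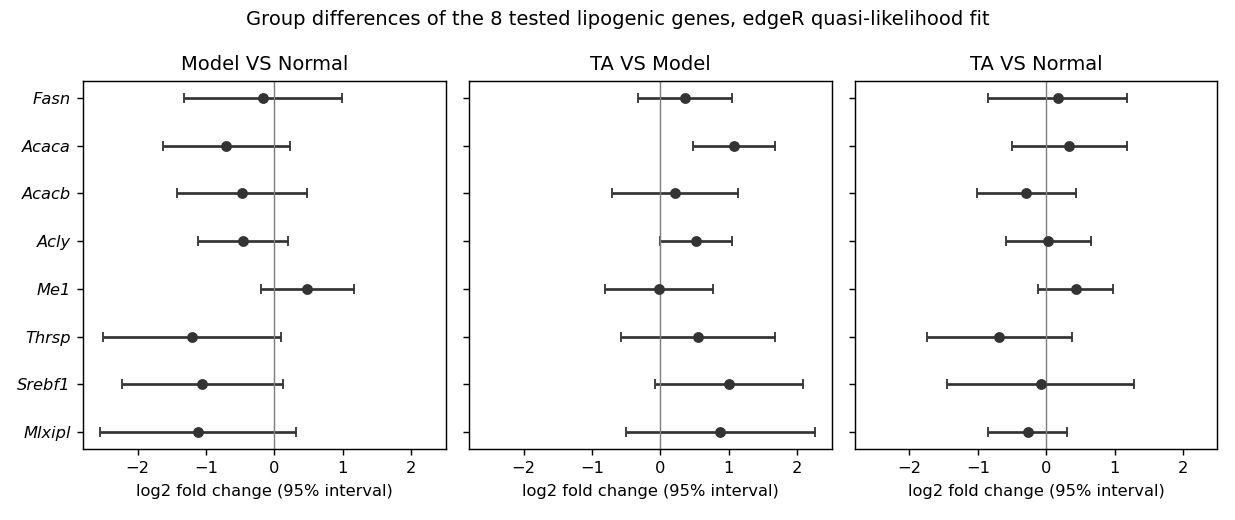
Log2 fold changes (horizontal axis) of the 8 tested genes (vertical axis) in the 3 comparisons, from edgeR's quasi-likelihood fit with TMM scaling; bars are 95% intervals from the spread between rats. The interval of Acaca in TA VS Model, from 0.48 to 1.68, is the only one that leaves out 0; with libraries scaled by their totals that gene was at 0.60 (adjusted p = 0.325).

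Acly, which makes the acetyl-CoA for the pathway, was at 38.0, 55.8 and 75.4 CPM in normal rats 1, 2 and 3. The model rats had 43.2, 36.7 and 42.9 CPM, against 69.1, 56.3 and 50.9 CPM in those given TA. With TMM scaling the model livers stood close together and below every TA liver. The normal livers ran from just above the lowest model liver to above every TA liver. In FPKM the model and TA livers overlapped. The log2 fold change was -0.46 (SE 0.28, adjusted p = 0.317) in Model VS Normal, 0.52 (SE 0.23, adjusted p = 0.324) in TA VS Model and 0.032 (SE 0.27, adjusted p = 0.993) in TA VS Normal. The exact permutation test of TA against model, on log2 CPM after TMM, gave p = 0.1, the smallest that 3 rats against 3 allow.

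Acaca, the cytosolic carboxylase whose malonyl-CoA feeds Fasn, was at 4.98, 11.0 and 14.5 CPM in the normal rats. Among model rats the levels were 6.15, 5.86 and 6.65 CPM, and among TA rats 11.1, 14.3 and 14.0 CPM. The highest model liver was at 1.13 times the lowest, and every TA liver lay above every model liver, while normal rat 1 was below the model livers and normal rat 3 above the TA livers. In FPKM the model livers spread over 1.54 times, and every TA liver still lay above them. Acaca had a log2 fold change in TA VS Model of 1.08 (SE 0.26, 95% interval 0.48 to 1.68). It was past the nominal threshold with an adjusted p of 0.246 by edgeR, and higher in 3 of 3 TA rats. Leaving out any 1 rat kept the value between 1.03 and 1.20 and past the nominal threshold, with an adjusted p between 0.0973 and 0.567. The adjusted p was 0.00640 with DESeq2 and 0.0536 with limma voom, and over all alternatives it ran from 0.00640 to 0.984. Scaled by library totals the log2 fold change was 0.60 (adjusted p = 0.325), and scaled by the hepatocyte markers it was 0.024. The Model VS Normal value was -0.71 (SE 0.40, adjusted p = 0.280) and the TA VS Normal value 0.34 (SE 0.37, adjusted p = 0.889). Without normal rat 1 the former was -1.05 (adjusted p = 0.141), and without normal rat 3 it was -0.40 (adjusted p = 0.557). These levels rest on 60 to 188 counts per liver.

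Acacb, the mitochondrial carboxylase, was at 37.7, 53.1 and 77.7 CPM in the normal rats. The model rats had 22.9, 62.2 and 36.1 CPM, against 49.0, 32.1 and 59.5 CPM in those given TA. All 3 groups overlapped, and the spread within the model group, 2.71 times from lowest to highest, was wider than any shift between group means. Fitted log2 fold changes were -0.47 (SE 0.41, adjusted p = 0.470) in Model VS Normal, 0.22 (SE 0.40, adjusted p = 0.802) in TA VS Model and -0.29 (SE 0.31, adjusted p = 0.887) in TA VS Normal. Without model rat 1 the TA VS Model value was -0.053. For Acacb the TA and model livers overlapped and for Acaca they did not, and the difference between the carboxylases was not tested.

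Fasn, the synthase itself, was at 20.3, 39.1 and 84.9 CPM in the normal rats. Among model rats the levels were 54.0, 46.5 and 27.9 CPM, and among TA rats 63.7, 46.8 and 54.6 CPM. The normal livers spread over 4.19 times from lowest to highest and enclosed every model and every TA liver. On the log2 scale the fold changes were -0.16 (SE 0.50, adjusted p = 0.854) in Model VS Normal, 0.36 (SE 0.30, adjusted p = 0.548) in TA VS Model and 0.17 (SE 0.44, adjusted p = 0.969) in TA VS Normal. The first of these turned positive without normal rat 3 (0.50) or model rat 3 (0.059), and its 95% interval ran from -1.31 to 0.99.

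Me1, the malic enzyme, was at 20.8, 21.1 and 19.0 CPM in the normal rats. The model rats had 30.6, 17.4 and 37.0 CPM, against 37.2, 22.2 and 24.4 CPM in those given TA. Every TA liver lay above every normal liver, and model rats 1 and 3 did so too, while model rat 2 lay below all normal livers. The log2 fold changes were 0.48 (SE 0.29, adjusted p = 0.310) in Model VS Normal, 0.43 (SE 0.24, adjusted p = 0.684; exact permutation p = 0.1) in TA VS Normal and -0.016 (SE 0.34, adjusted p = 0.983) in TA VS Model. With library totals the Model VS Normal value of Me1 was 1.11 (adjusted p = 0.0686) and with the hepatocyte markers 1.79 (adjusted p = 0.0679), each past the nominal threshold and the only one of the 8 genes to pass it there. With TMM scaling, Me1 was the only one of the 8 genes with a higher fitted level in the model group, and its normal livers were the closest together of any of the 8, with an SD of 0.084 on the log2 scale against a median of 0.34 over all genes.

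Srebf1, whose counts sum the transcripts of SREBP-1a and SREBP-1c, was at 39.7, 86.1 and 186 CPM in the normal rats. Among model rats the levels were 39.7, 58.8 and 50.9 CPM, and among TA rats 41.2, 162 and 96.6 CPM. The model livers lay in the lower part of the range, while normal rat 1 and TA rat 1 lay next to the lowest model liver. Its log2 fold changes were -1.06 (SE 0.51, adjusted p = 0.210) in Model VS Normal, 1.01 (SE 0.47, adjusted p = 0.337) in TA VS Model and -0.082 (SE 0.60, adjusted p = 0.993) in TA VS Normal. Without normal rat 1 the Model VS Normal value was -1.45 (adjusted p = 0.120), and without normal rat 3 it was -0.37 (adjusted p = 0.566). The TA VS Model value was 1.39 without TA rat 1 (adjusted p = 0.426) and 0.48 without TA rat 2 (adjusted p = 0.663), so that single rats set the size of both.

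Mlxipl, whose counts likewise sum the transcripts of ChREBP, was at 98.8, 157 and 182 CPM in the normal rats. The model rats had 15.2, 83.0 and 104 CPM, against 114, 116 and 140 CPM in those given TA. Model rat 1 stood far below all others, model rat 3 lay within the normal range, and every TA liver was above every model liver. In FPKM the model and TA livers overlapped. The log2 fold changes were -1.12 (SE 0.62, adjusted p = 0.271) in Model VS Normal, 0.88 (SE 0.60, adjusted p = 0.474) in TA VS Model and -0.27 (SE 0.25, adjusted p = 0.860) in TA VS Normal. Without model rat 1 the values were -0.66 (adjusted p = 0.227) and 0.41 (adjusted p = 0.647). In that liver the hepatocyte markers were also the lowest of the 9, and their part in its Mlxipl level was not tested.

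Thrsp, the feeding-induced Spot 14, was at 39.4, 81.1 and 141 CPM in the normal rats. Among model rats the levels were 21.4, 66.0 and 26.0 CPM, and among TA rats 37.9, 83.1 and 44.7 CPM. Model rats 1 and 3 lay below all normal and TA livers, while model rat 2 lay among them. Its log2 fold changes were -1.21 (SE 0.56, adjusted p = 0.199) in Model VS Normal, 0.55 (SE 0.49, adjusted p = 0.576) in TA VS Model and -0.69 (SE 0.47, adjusted p = 0.769) in TA VS Normal. Without model rat 2 the first was -1.88 (adjusted p = 0.0919) and the TA VS Model value 1.23 (adjusted p = 0.306), and without normal rat 1 the first was -1.57 (adjusted p = 0.160). In the other direction, the first was -0.71 without normal rat 3 (adjusted p = 0.458) and the TA VS Model value 0.15 without TA rat 2 (adjusted p = 0.914). Thrsp had the lowest TA VS Normal value of the 8.

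Pnpla3, the lipid droplet protein downstream of SREBP-1c, had only 3, 4 and 1 counts in the normal rats. The model rats had 15, 28 and 5 counts, and the rats given TA 8, 7 and 6. The normal livers were the lowest 3 of the 9 in CPM, from 0.0839 to 0.258, below the model livers (0.354 to 1.84) and the TA livers (0.448 to 0.592). The summed counts of the model group were at 4.59 times those of the normal control group after scaling, with a 95% counting interval from 2.15 to 11.2 that leaves out the spread between rats. The TA group was at 2.64 times the normal control group (1.12 to 6.89) and at 0.575 times the model group (0.327 to 0.979). In a fit without the filter on low counts, Pnpla3 had a log2 fold change of 2.19 in Model VS Normal (adjusted p = 0.169). With TMM scaling that sign was opposite to that of Srebf1, which turned to 0.027 with the hepatocyte markers. Exact permutation gave p = 0.1 for Model VS Normal and for TA VS Normal, the smallest possible, and 0.7 for TA VS Model.

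**Figure D2:**
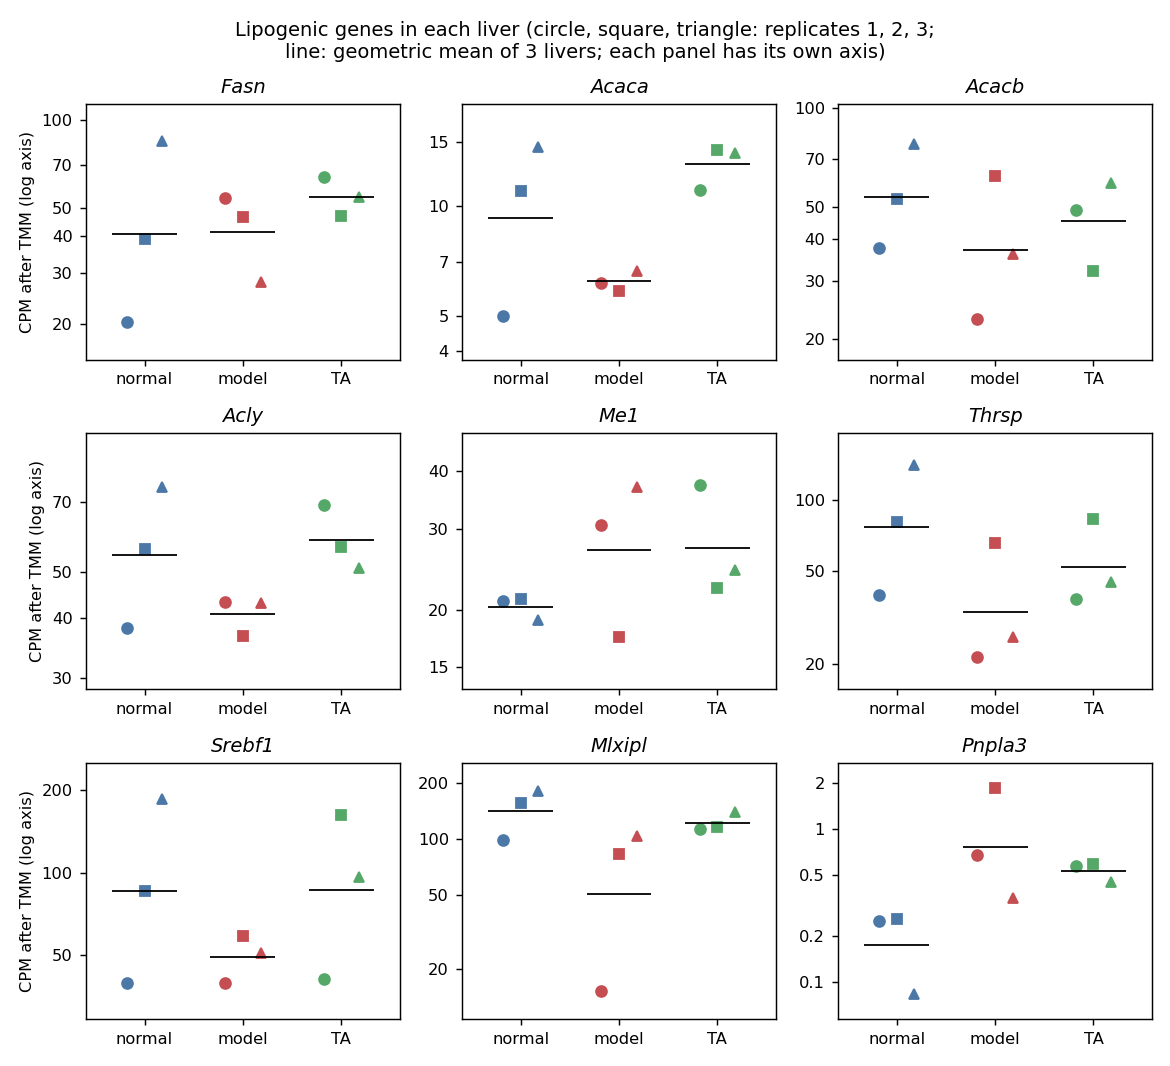
Level of each of the 9 measured genes in each liver (vertical axis, CPM after TMM scaling, log axis, own range per panel) for the normal, model and TA groups; circles, squares and triangles are replicates 1, 2 and 3, and lines are geometric means of 3 livers. Normal livers (blue) climb in the same order for most genes, and the model livers of Acaca and Acly (red) lie in a narrow band below the TA livers (green). In FPKM the model livers of Acly overlap the TA livers.

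The spread among the normal livers was itself large for most of these genes. The SD on the log2 scale over the 3 normal rats was 1.11 for Srebf1, wider than that of 96.0% of 12998 genes, and 1.03 for Fasn (94.8%), 0.92 for Thrsp (92.7%) and 0.79 for Acaca (88.9%). Among the 8 tested genes, 7 were lowest in normal rat 1 and highest in normal rat 3, all but Me1. Of all genes, 18.5% had that order and 18.6% the opposite one. The lists of neighbouring pathways differed in it. Of 17 supply genes, 6 had this order and 3 the opposite one, and of 31 regulators of lipogenic transcription, 7 and 3. Of 15 genes for desaturation and elongation, which follow palmitate, 2 had this order and 6 the opposite one. For 13 fasting genes these counts were 1 and 3, and for 10 genes of mitochondrial fatty acid synthesis 1 and 0. Of 14 genes for lipid droplet proteins and lipases, 0 had this order and 9 the opposite one, and of 11 genes for malonyl-CoA turnover and acyl-CoA use, 0 had it and 6 the opposite one. Among them Cpt1a, the carnitine palmitoyltransferase that malonyl-CoA inhibits, was at 570, 314 and 228 CPM in normal rats 1, 2 and 3. The order was noticed after the values were seen, and it describes these 3 rats. In the TA group the SD was below the median of 0.37 over all genes for Fasn (0.22), Acaca (0.20), Acly (0.22) and Mlxipl (0.16). The SD was above it for Srebf1 (0.99), Thrsp (0.60), Acacb (0.45) and Me1 (0.39). Of these, Srebf1, Thrsp and Acacb were below their normal values (0.52 for Acacb), and Me1 was above its normal value of 0.084.

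Srebf1 and Fasn kept a near-constant ratio in the normal livers but not in the others. Counts of Fasn were 0.454 to 0.510 times those of Srebf1 in the 3 normal rats although Fasn varied 4.19 times and Srebf1 4.68 times between these rats. Model rats had ratios of 1.36, 0.792 and 0.549 and TA rats of 1.54, 0.289 and 0.565, so that every model liver lay above every normal liver while TA rat 2 lay below them. Fasn counts over those of Mlxipl were 0.205 to 0.466 in the normal rats, 3.55, 0.561 and 0.269 in the model rats and 0.390 to 0.558 in the TA rats. A ratio within a liver does not depend on the scaling of libraries, and it shows unequal levels without saying which gene moved. These ratios were chosen after the counts were seen and have no test.

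**Figure D3:**
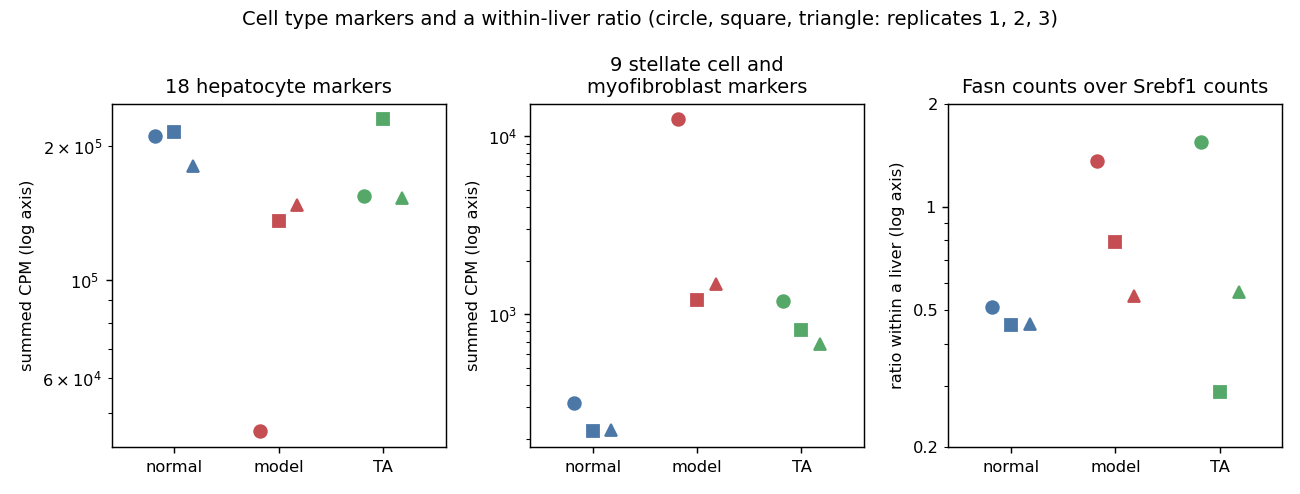
Summed CPM of 18 hepatocyte markers (left, log axis), of 9 stellate cell and myofibroblast markers (middle, log axis) and the Fasn counts over the Srebf1 counts (right, log axis) in each liver of the normal, model and TA groups; circles, squares and triangles are replicates 1, 2 and 3. Model rat 1 has the lowest hepatocyte sum (45582 CPM) and the highest myofibroblast sum (12410 CPM), and the 3 normal livers share a Fasn to Srebf1 ratio of 0.454 to 0.510.

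Over the 9 livers, log2 CPM of Thrsp and Srebf1 correlated at r = 0.84 and of Acaca and Acly at r = 0.85, each the closest pair among the 8 genes for its members. Acly was also the nearest of the 8 to Fasn (r = 0.71), Mlxipl and Acacb were nearest to each other (0.74), and Me1 followed none of them (0.099 at most, with Acly). Other genes came closer. Ranked among all 7958 well expressed genes, Acaca was number 5 for Acly, Acly 10 for Acaca, Thrsp 20 for Srebf1 and Srebf1 46 for Thrsp. Acly was number 40 for Fasn and 2665 for Me1, Mlxipl 435 for Acacb, and Acacb 1770 for Mlxipl. Among 7958 well expressed genes, the one that tracked Mlxipl most closely was Zfp110 at 0.99, followed by Cbs, the cystathionine synthase, at 0.98. For Srebf1 the nearest was Man2b1 (0.94), for Thrsp Cep63 (0.94), for Acacb Zfp865 (0.95), for Acaca Bap1 (0.90), for Fasn Sfr1 (0.88) and for Me1 Zfand2a (0.83). These values describe 9 livers that share groups, with model rat 1 far from the rest for Mlxipl.

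Markers of other cells moved with the groups, and the scaling of the libraries moved with them. The hepatocyte markers summed to between 180244 and 215140 CPM in the normal control group, to 45582, 135425 and 147681 CPM in the model rats and to between 152716 and 229777 CPM in the TA group. All 18 had a log2 fold change below 0 in Model VS Normal, with a median of -0.91, and 17 of 18 were above 0 in TA VS Model, with a median of 0.90. These medians were -0.54 and 0.53 without model rat 1. Of the stellate cell and myofibroblast markers, 9 of 10 were measured, and 7 rose in Model VS Normal at the nominal threshold and fell in TA VS Model. Without model rat 1, 7 still rose in the former but 1 fell in the latter, where the median of the 9 went from -2.21 to -0.52. Their sum was 220 to 318 CPM in the normal control group, 12410, 1209 and 1487 CPM in the model rats and 679 to 1192 CPM in the TA group. Of 8 cholangiocyte markers, 7 rose in Model VS Normal and 7 fell in TA VS Model at that threshold, with or without model rat 1. Of 10 macrophage markers, 6 rose and 1 fell in the former, and 1 rose and 3 fell in the latter. Without that liver these counts were 3 and 3, and 2 and 1. Of 7 endothelial markers, 2 rose and 1 fell in the former and 1 rose in the latter. Of the lymphocyte markers 0 passed in either. Without model rat 1, 1 endothelial and 2 lymphocyte markers rose in the former, and 0 of either list passed in the latter. Of 10 markers of adipocytes, which also make fat, 6 were measured. Their sum was 34.6 to 75.3 CPM in the normal, 36.3 to 84.4 CPM in the model and 44.7 to 82.0 CPM in the TA group, most of it from Cfd (24.4 to 75.4 CPM) and Cidea (5.22 to 16.7 CPM). Adipoq was at 0 to 0.263 CPM, Retn at 0 to 0.141 CPM and Nnat at 0.168 to 9.11 CPM, the highest in model rat 1. Aqp7 was at 0 to 0.193 CPM in the normal, 0.566 to 1.84 CPM in the model and 0 to 1.02 CPM in the TA group. The part of the cell makeup in the levels of the lipogenic genes was not tested.

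The direction of most of the lipogenic genes depended on how the libraries were scaled, since TMM sets the middle of all genes to 0 and the other scalings do not. In Model VS Normal the median of the 8 genes was -0.59 with TMM, 0.00064 with library totals and 0.50 with scaling by the hepatocyte markers, while the median of all genes was 0.017, 0.65 and 1.28. Relative to all genes, the 8 genes were lower by each scaling, at -0.61, -0.65 and -0.78. For TA VS Model the median of the 8 was 0.54, 0.089 and -0.42, while that of all genes was -0.0038, -0.48 and -1.05, so that relative to all genes the 8 were at 0.54, 0.57 and 0.63. Set against the hepatocyte markers, Fasn was at 1.20, Acly at 0.81 and Me1 at 1.79 in Model VS Normal, with adjusted p-values of 0.210, 0.318 and 0.0679. Thrsp and Mlxipl stayed below 0 by all 3 scalings in Model VS Normal, as did Me1 above 0, and the signs of the other 5 changed. Acaca and Mlxipl stayed above 0 and Me1 below 0 in TA VS Model, and the signs of the other 5 changed.

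**Figure D4:**
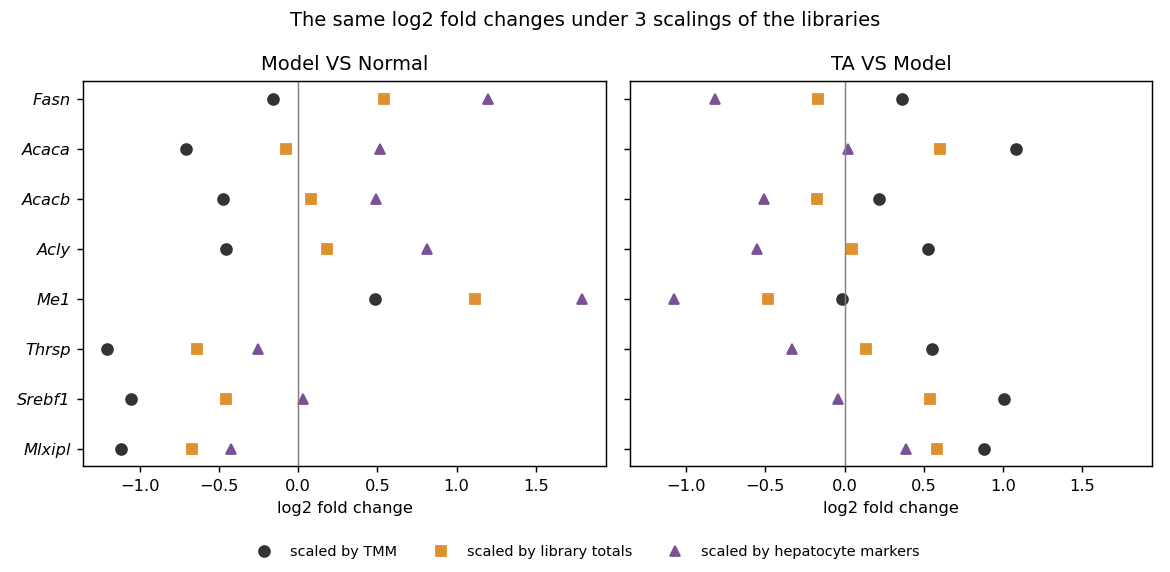
Log2 fold changes (horizontal axis) of the 8 tested genes (vertical axis) in Model VS Normal and TA VS Model with libraries scaled by TMM (black circles), library totals (orange squares) and the summed hepatocyte markers (purple triangles). Each gene moves to higher values from TMM to the hepatocyte markers in Model VS Normal, and to lower values in TA VS Model.

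The neighbouring pathways hold further genes, described by lists with the same threshold and TMM scaling. Over the 7 lists 18 genes passed in Model VS Normal, of which 12 also passed without model rat 1 and 10 with library totals, and 12 passed in TA VS Model, of which 4 and 5 did. No sign turned in those 4 fits. With scaling by the hepatocyte markers 8 of the 18 and 3 of the 12 passed, and 1 sign turned, in Model VS Normal. Relative to all genes, the medians of all 7 lists were below 0 in Model VS Normal and above 0 in TA VS Model by TMM, library totals and the hepatocyte markers alike. Without that liver the 7 list medians ran from -0.84 to -0.34 in the former comparison and from 0.33 to 0.64 in the latter. Leaving it out for the lists was chosen after the data were seen. Genes that supply the pathway were read as a list of 18, of which 17 were tested. The median was -0.46 in Model VS Normal. Pklr, the liver pyruvate kinase and a target of ChREBP, fell by 1.70 in Model VS Normal at the nominal threshold (adjusted p = 0.0767), from 40.4 to 75.6 CPM in the normal rats to 6.28 to 26.7 CPM in the model rats. Of the 17, 12 were above 0 in TA VS Model and the median was 0.48. In TA VS Normal 0 passed by edgeR, with 0 below 0.05 before adjustment, and 0 by DESeq2.

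Desaturation and elongation, which follow palmitate, moved in both directions. Of 17 listed genes 15 were tested in Model VS Normal, and 3 rose and 3 fell at the same threshold, with a median of -0.69. Hacd4, a dehydratase of fatty acid elongation, rose by 4.67 (adjusted p = 0.0241), from 0.0839 to 0.415 CPM in the normal rats to 2.55 to 12.1 CPM in the model rats. Scd2, a stearoyl-CoA desaturase best known from brain, rose by 3.10 (adjusted p = 0.0503) and Elovl7, an elongase, by 3.08 (adjusted p = 0.0592). Elovl7 was low in every liver, at 0 to 0.166 CPM in the normal rats and 0.658 to 1.26 CPM in the model rats. Among those that fell, Fads2, a desaturase of polyunsaturated fatty acids, fell by 1.73 (adjusted p = 0.126). In TA VS Model 2 rose, Fads1, the partner desaturase of Fads2, by 1.19 (adjusted p = 0.246) and the elongation reductase Hsd17b12 by 1.16, and 2 fell, Scd2 by 1.80 and Elovl7 by 1.44. Among TA VS Normal values, Scd, the main stearoyl-CoA desaturase of liver, fell by 1.64 (adjusted p = 0.198), from 41.1 to 149 CPM in the normal rats to 24.4 to 39.9 CPM in the TA rats, and Hacd4 and Scd2 were higher by 3.01 and 1.27. Scd2 was highest in model rat 1 at 148 CPM. That liver had the highest marker sums for myofibroblasts, macrophages, cholangiocytes, endothelial cells, lymphocytes and adipocytes, and the lowest for hepatocytes. Without that liver the TA VS Model value of Scd2 was -0.52 and its Model VS Normal value 1.80. The part of other cells in its level was not tested. Fads2 was at -1.39 without model rat 1 in Model VS Normal (adjusted p = 0.203), and Elovl7, without that rat, at -1.09 in TA VS Model (adjusted p = 0.649), neither past the nominal threshold. Scd and Scd2 are close paralogs, and reads shared between them could have been counted on either.

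Of 31 regulators of lipogenic transcription, all were tested. In Model VS Normal 3 fell, Ppargc1b, a coactivator of SREBP-1c, by 1.40, Rxra by 1.28 and Nr1h3, the liver X receptor that drives Srebf1, by 1.18, with adjusted p-values of 0.110, 0.124 and 0.122. The median was -0.47. With TMM scaling 0 rose by edgeR or by DESeq2. With library totals 2 rose and 0 fell, and with the hepatocyte markers 5 rose and 0 fell. Without model rat 1, 1 of the 3 falls (Ppargc1b) still passed, while Rxra was at -1.20 (adjusted p = 0.211) and Nr1h3 at -0.87. Nr1h3 was at 188, 211 and 254 CPM in the normal rats and at 45.8, 93.9 and 147 CPM in the model rats, without overlap. In TA VS Model Rxra, the partner of Nr1h3, rose by 1.45 (adjusted p = 0.264), and 26 of the 31 were above 0 with a median of 0.45. Against the normal control group, in TA VS Normal, Ppara, the fasting receptor of fatty acid oxidation, fell by 1.15 (adjusted p = 0.418), and the median was -0.017. None of these passed the adjusted threshold.

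Of the genes for lipid droplet proteins and lipases 13 of 17 were tested, and in Model VS Normal 1 rose and 2 fell. G0s2, the inhibitor of the lipase Pnpla2, fell by 2.26 (adjusted p = 0.0438), from 591 to 658 CPM in the normal rats to 61.4, 95.1 and 236 CPM in the model rats. Cidec, which enlarges lipid droplets, fell by 1.47 (adjusted p = 0.0619), and Plin3, a droplet coat protein of many cell types, rose by 1.16 (adjusted p = 0.0425). Without model rat 1, Plin3 was at 1.12 (adjusted p = 0.0596), no longer past the adjusted threshold. In TA VS Model 3 rose, G0s2 by 1.60, Cidec by 1.41 and Fitm2 by 1.11, with adjusted p-values of 0.299, 0.258 and 0.264. Of them Cidec alone passed without model rat 1, while G0s2 was at 1.27 (adjusted p = 0.557) and Fitm2 at 0.80, and with scaling by the hepatocyte markers 0 rose and 1 fell. In TA VS Normal 0 passed by edgeR, with 0 below 0.05 before adjustment, and 0 by DESeq2.

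Genes for malonyl-CoA turnover and acyl-CoA use, the branch that competes with synthesis, had 11 tested members, with a median of -0.93 for Model VS Normal and 0.97 for TA VS Model. Cpt1a rose by 1.33 in TA VS Model (adjusted p = 0.287) and Cpt2 by 1.17 (adjusted p = 0.308), and Cpt2 had fallen by 1.16 in Model VS Normal (adjusted p = 0.169). Acot1, an acyl-CoA thioesterase with close paralogs that could share its reads, rose by 3.30 in Model VS Normal (adjusted p = 0.0418) and by 4.73 in TA VS Normal (adjusted p = 0.253), where TA rat 1 at 43.9 CPM stood above all others (0.336 to 9.20 CPM). Without model rat 1 the Model VS Normal value of Acot1 was 3.14 (adjusted p = 0.0582), no longer past the adjusted threshold. Acsl3 rose by 1.01 in TA VS Normal. All 11 genes were above 0 in TA VS Model, as were 7 of the 8 lipogenic genes, so that genes of synthesis and of oxidation lay on the same side of 0 with TMM scaling. Scaled by the hepatocyte markers, the medians in TA VS Model were 0.48 for these 11 and -0.42 for the 8 lipogenic genes. Without model rat 1, Cpt1a was at 0.98 and Cpt2 at 0.81 in TA VS Model and Cpt2 at -0.82 in Model VS Normal, none of them past the nominal threshold. Mitochondrial fatty acid synthesis, a separate pathway for lipoate, was tested with 10 genes and had a median of -0.68 and 0.65, with 1 gene passing, Lipt1, which rose by 1.31 in TA VS Model and did not pass without model rat 1 (1.19, adjusted p = 0.575).

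A list of 14 genes that respond to fasting was read beside these, since every rat had been fasted, and 13 were tested. The list median was -1.26 for Model VS Normal and 0.93 for TA VS Model. In Model VS Normal Asns, the asparagine synthetase of the amino acid response, rose by 1.62 (adjusted p = 0.0830) and Angptl4, the fasting-induced inhibitor of lipoprotein lipase, fell by 1.34 (adjusted p = 0.112). DESeq2 gave 1 higher and 7 lower there, and library totals 2 higher and 0 lower, with Angptl4 at -0.76. For TA VS Model 0 passed by edgeR, with 0 below 0.05 before adjustment, and 1 by DESeq2. In TA VS Normal 0 passed by edgeR, with 1 below 0.05 before adjustment, and 0 by DESeq2. Genes induced by fasting and genes lowered by it thus had medians on the same side of 0 with TMM scaling, and so had the hepatocyte markers. With scaling by the hepatocyte markers they did not, since the 8 lipogenic genes had medians of 0.50 and -0.42 and the fasting list -0.41 and 0.24.

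**Figure D5:**
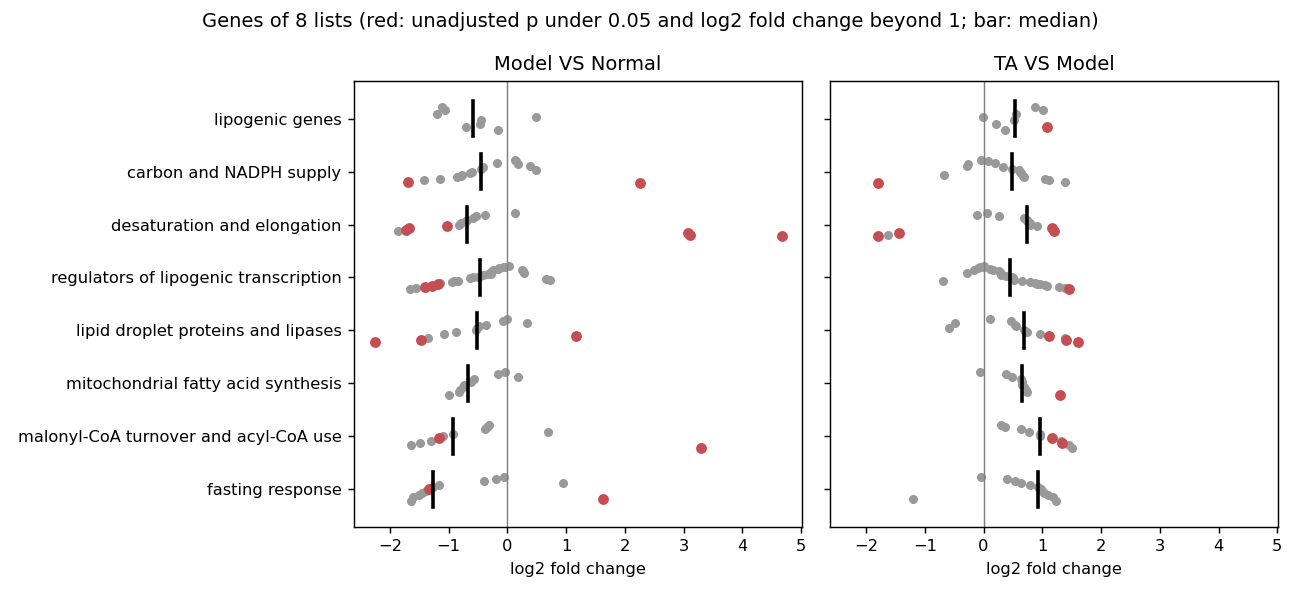
Log2 fold changes (horizontal axis) of every tested gene of 8 lists (rows) in Model VS Normal and TA VS Model; red points passed the nominal threshold, and bars are list medians. Medians of all 8 lists lie below 0 in Model VS Normal, from -1.26 to -0.46, and above 0 in TA VS Model, from 0.45 to 0.97, with TMM scaling; with libraries scaled by their totals, the medians of 3 of the 7 neighbouring lists turn positive in the former and that of 1 turns negative in the latter, and with the hepatocyte markers 5 turn in each.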

How the data were processed

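Liver RNA of 9 rats was sequenced after poly(A) selection. Per the paper's methods, reads were trimmed, mapped with STAR and counted on genes with HTSeq-count. The methods name the human genome hg19 and the submitters' processing notes name mm9 as the build, while the gene symbols are those of rat. Of 17156 gene names 15601 (90.9%) matched rat RefSeq names of GRCr8, which was used for names and promoter windows.

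Raw counts of reads on each gene were deposited by the authors in a pair of tables that share the model livers, whose counts were identical for all 16730 shared genes, and these counts were used for every test. The authors also deposited FPKM values, used here to compare genes per length, and a signal of counts normalized with DESeq2, which was not used. The log2 fold changes and p-values deposited by the authors hold their own comparisons and were not used.

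Counts were tested with edgeR 4.0.16 (R 4.3.3), by the quasi-likelihood test with TMM normalization and filterByExpr, on the libraries of the groups compared and all genes at once, with Benjamini-Hochberg adjustment. Thresholds were an adjusted p of 0.05, or, as the nominal threshold, a p of 0.05 before adjustment with more than 1 log2 unit of change. Standard errors are the log2 fold change over the square root of F. Levels across the 9 livers are CPM after TMM over 12998 genes. Log2 CPM used a prior count of 2, and correlations were restricted to genes averaging 3 or more on that scale. Alternatives used DESeq2 1.42.0 and limma 3.58.1. The fits were tested on simulated data.

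The 10 genes and all lists were chosen with earlier results of these data known. All 10 are named, and of each list at most 4 genes a comparison, with the largest fold change at the nominal threshold, plus Cpt1a in the normal livers and the markers Alb and those of adipocytes, which were chosen after their values were seen. Some genes that this rule would also name are not reported here. Same-numbered rats are different animals, and nothing states what a number shares. In TA VS Normal their deviations correlated in every pair (r = 0.233, 0.370 and 0.452), so that a blocked fit was run there, and it changed no call. No 2 libraries of a group were duplicates.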

Additional observations from a re-analysis of the deposited data

How the results depend on the processing

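The values were recomputed with DESeq2, limma voom with sample quality weights, the newer form of the quasi-likelihood fit, median-of-ratios factors, library totals, the summed hepatocyte markers, no filter on low counts, at least 1 CPM in 3 libraries, a joint fit of the 9 libraries, the replicate block, and each rat left out in turn. Over these, 347 values of single lipogenic genes kept their sign and their side of the adjusted threshold, 36 changed sign and 1 passed the threshold (Acaca in TA VS Model with DESeq2, adjusted p = 0.00640). In the main fit 0 of the 8 genes had passed the adjusted threshold in any comparison, so that a pass could be gained but not lost. The cause of the changes was not tested, except that leaving out a rat leaves fewer samples.

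In Model VS Normal, scaling by the hepatocyte markers gave a median of 0.50 for the 8 genes, 1 gene at the nominal threshold, and values of 0.52 for Acaca, 0.49 for Acacb, 0.81 for Acly, 1.20 for Fasn and 0.027 for Srebf1. Library totals gave a median of 0.00064, 1 gene, and 0.078 for Acacb, 0.18 for Acly and 0.54 for Fasn. With limma voom the median was -0.15, Acacb was at 0.20 and Fasn at 0.49. At the same threshold DESeq2 gave 2 genes and the fit without a filter 3 (Thrsp, Srebf1 and Pnpla3). With each rat left out, the median ran from -0.80 to -0.23, the number of genes from 0 to 3 and Fasn from -0.54 to 0.50.

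In TA VS Model, scaling by the hepatocyte markers gave a median of -0.42, 0 genes, and values of -0.51 for Acacb, -0.56 for Acly, -0.82 for Fasn, -0.041 for Srebf1 and -0.33 for Thrsp. Library totals gave a median of 0.089, 0 genes, and -0.17 for both Acacb and Fasn. With limma voom Acacb was at -0.30 and Me1 at 0.49. DESeq2 gave 1 gene by adjusted p and 2 at the nominal threshold (Acaca and Srebf1), and the fit without a filter gave 2 at the latter. With each rat left out, the median ran from 0.36 to 0.86, the number of genes from 1 to 2, Acacb from -0.053 to 0.67 and Me1 from -0.27 to 0.23.

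In TA VS Normal, the median was 0.12 with the hepatocyte markers, 0.16 with library totals, 0.27 with limma voom and 0.025 without a filter. Srebf1 was at 0.085 with library totals and at 0.19 with limma voom. With each rat left out, the median ran from -0.34 to 0.33, the number of genes at the nominal threshold from 0 to 1, Acacb from -0.52 to 0.0060, Acly from -0.19 to 0.29, Fasn from -0.20 to 0.85 and Srebf1 from -0.62 to 0.63.

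With the replicate block, 2 genes passed the nominal threshold in Model VS Normal (Thrsp at -1.19 and Mlxipl at -1.45) and Fasn was at 0.042, Me1 was at 0.015 in TA VS Model, and the median was 0.024 in TA VS Normal. The block changed no call by adjusted p. Same-numbered livers correlated at -0.055 to 0.210 in Model VS Normal and at -0.038 to 0.213 in TA VS Model, so not in every pair. What a number shares in these groups was not tested.

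These limits stand beside these values. With 3 rats a group, an exact permutation test cannot go below 0.1. Pnpla3 rests on 1 to 28 counts per liver, too few for a test, and where leaving out a rat let it pass the filter the median covers 9 genes. The direction of most of the genes follows the scaling, and no measurement here fixes the RNA content per hepatocyte.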
